A study of Arabidopsis thaliana with 4 samples.

Results

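The SINE and RathE elements are the short retroelements of the *A. thaliana* transposon annotation. Members were all count rows whose identifier names a superfamily that starts with SINE or with RathE, which gave 522 annotated copies among 31189 transposon rows (1.67%). They comprise 213 copies of RathE1_cons, 74 of RathE2_cons and 104 of RathE3_cons, and 131 SINE copies, of which 98 are ATSINE4 and 33 are ATSINE2A. No measured value was used to choose them, although earlier results of these data were known when they were chosen.

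SINEs are non-autonomous retroelements: they encode no protein and are thought to be copied by enzymes of LINE elements, the autonomous non-LTR retroelements. Most plant SINEs descend from tRNA genes and carry an internal promoter for RNA polymerase III, and the RathE families are short elements of the same kind. In *A. thaliana* such short copies are silenced in part by RNA-directed DNA methylation (RdDM), in which small RNAs guide methylation in the CG, CHG and CHH contexts. Jumonji proteins related to JMJ26 remove methyl groups from histone H3, and methylation of its lysine 9 is coupled to CHG methylation.

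RNA-seq compared Col-0, the wild type, with *jmj26*, in which a T-DNA interrupts *JMJ26* (AT1G11950), a Jumonji gene, in the Col-0 background, with 2 libraries of each genotype. Whole rosettes were taken at the nine-leaf stage from plants kept for 2 days at 4°C and then grown on soil at 21°C with 16 h of light. The mutant is a single insertion line, and rosettes were collected plant by plant per the methods, which do not say whether a library holds 1 rosette or several or whether the 2 libraries of a genotype came from separate plants. The p-values then measure the spread between these libraries, which may be partly technical. The paper's supplement also describes 2 homozygous *jmj26* lines from the same insertion stock that were kept apart over generations. Which of them gave each *jmj26* library is not stated in the methods. The RNA was selected for poly(A), and the library kit keeps the strand, although the labels give the molecule as DNA.

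Total counts per library ranged from 740909 to 1998601, and both Col-0 libraries were shallower than both *jmj26* libraries. The *JMJ26* row held 0 to 2 counts in each library, so the genotype could not be checked on it. Genes with another gene on the opposite strand of their interval are 24.9% of the gene rows in TAIR10.1 but held 92.4% to 95.7% of the gene counts. The strand on which reads were counted is not given in the sources used here, and the counts of genes and copies alike may be those of the other strand. All 6 leaf markers were counted, with a summed level of 208 and 483 CPM (counts per 1000000 counts of the library) in Col-0, against 999 and 909 in *jmj26*. Each of the 6 was higher in *jmj26*, as were 2763 of the 5232 gene rows tested. In the edgeR fit described below, 5 of the 6 had an unadjusted p below 0.05, as did 703 of the 5232 rows, and 0 had an adjusted p below 0.05. Whether this difference plays a part in the values below was not tested. The file header of *jmj26* replicate 2 carries a leading number that differs from the one shared by the other 3 libraries, and what it marks is not stated. Across 6078 rows, the lowest correlation of log2 CPM between libraries was 0.82, between this library and Col-0 replicate 1, given as a description.

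Most copies had no read. Of the 522 copies, 433 had 0 counts in all 4 libraries, and 89 (17.0%) had at least 1 count in some library, compared to 31.9% of the 1366 LINE/L1 copies and 24.7% of all transposon rows. Of the 89, 49 rested on a single read over the 4 libraries, 75 never rose above 3 counts, the floor used here, and 14 exceeded it. Counts in all 4 libraries were found for 11 copies. ATSINE2A had the largest part of its copies counted, 13 of 33, followed by RathE3_cons with 20 of 104, ATSINE4 with 18 of 98, RathE2_cons with 11 of 74 and RathE1_cons with 27 of 213. With a floor of 3 counts (1.5 to 4.05 CPM), a copy listed at 0 was not detectable at this depth in poly(A)-selected RNA. Such a copy is not shown to be silent. How far this selection keeps transcripts of RNA polymerase III was not tested. The copies carry no coordinates or lengths in the files, so their sequences and positions were not analysed here. For the same reason, counts of different copies are compared only as reads and not as transcript levels, and a read of a copy cannot be told apart from a read of a longer transcript that runs through it.

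The deepest library had the most copies counted. At least 1 count was found for 37 and 33 copies in Col-0 replicates 1 and 2, and for 49 and 37 copies in *jmj26* replicates 1 and 2. With every library thinned to the 740909 counts of the shallowest, the expected numbers were 30.9 and 33.0 in Col-0, against 27.3 and 25.8 in *jmj26*. The thinned numbers did not overlap between genotypes, with fewer copies in *jmj26*, a mean difference of -5.42 copies. The exact permutation test gave p = 0.33 (two-sided), the smallest p that 2 libraries against 2 allow. The same order was seen for LINE/L1 copies, with 169 and 176 of 1366 in Col-0, against 153 and 160 in *jmj26*. It was also seen for all transposon rows, with 2881 and 3157 in Col-0, against 2796 and 2720 in *jmj26*, and a difference of the short elements from these rows was not tested.

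**Figure D1:**
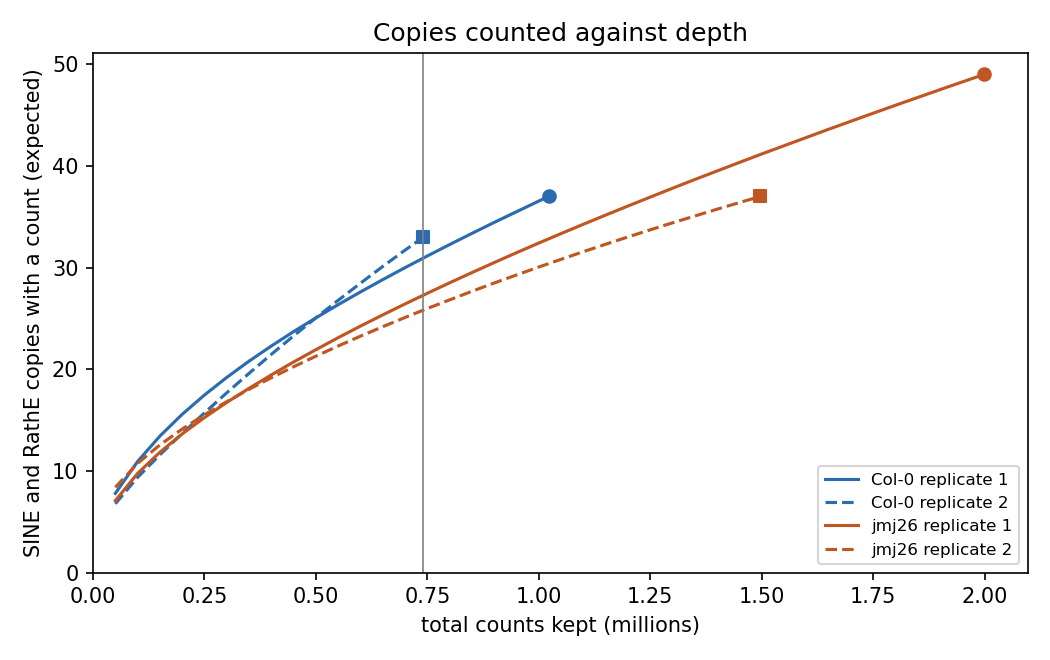
Expected number of SINE and RathE copies with at least 1 count (y axis) when a library is thinned to a given total count (x axis), with a line for each library and a point at its full depth. At the grey line, the 740909 counts of the shallowest library, the Col-0 libraries give 30.9 and 33.0 copies and the *jmj26* libraries 27.3 and 25.8.

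Many copies were counted in a single library. The 2 Col-0 libraries shared 17 copies, 45.9% and 51.5% of those counted in each, and the 2 *jmj26* libraries shared 19, 38.8% and 51.4% of theirs. Pairs of different genotypes shared 17 to 20 copies. Counts in both genotypes were found for 31 copies, in Col-0 alone for 22 and in *jmj26* alone for 36. Both Col-0 libraries were shallower, so 22 and 36 cannot be compared as they stand, and the same numbers over all transposon rows were not obtained. With every library thinned to the same total, the copies counted ran the other way, 30.9 and 33.0 in Col-0, against 27.3 and 25.8 in *jmj26*. None of the copies counted in a single genotype had more than 4 counts in sum, and no fold is given for them.

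A few RathE1_cons copies held most reads. All members together had 522 and 290 counts in Col-0, against 827 and 1012 in *jmj26*. The 4 most counted copies, AT4TE09335, AT4TE10620, AT4TE31060 and AT3TE64730, all belong to RathE1_cons. They held 82.4%, 82.1% and 81.9% of the member counts in Col-0 replicates 1 and 2 and *jmj26* replicate 1, but 66.7% in *jmj26* replicate 2 (95% Wilson interval 63.7 to 69.5). Over the 4 libraries AT4TE09335 alone held 40.7% of the member counts, compared to 27.2% for the most counted of the LINE/L1 copies and 9.0% for that of all transposon rows. These sets hold 522, 1366 and 31189 rows, and the share of a top row depends on the size of its set. By the number in the identifier, which names the chromosome, chromosome 4 carries 16.1% of the copies but 69.7% of the counts, most of them from 3 RathE1_cons copies. Chromosome 2 carries 22.0% of the copies and 2.26% of the counts.

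The share of all counts held by SINE and RathE rows was 0.0511% (95% Wilson interval 0.0469 to 0.0556) and 0.0391% (0.0349 to 0.0439) in Col-0. It was 0.0414% (0.0386 to 0.0443) and 0.0676% (0.0636 to 0.0719) in *jmj26*. The genotypes overlapped, since *jmj26* replicate 1 lay between the Col-0 libraries and only *jmj26* replicate 2 stood above them. In whole rosettes, fewer cells with a transcript and less of it per cell cannot be told apart. The mean difference was 0.00938 percentage points, beside an SD of 0.0084 in Col-0 and 0.0185 in *jmj26* (n = 2 each). The exact permutation test gave p = 0.667 (two-sided), with 0.33 the smallest possible. Without *jmj26* replicate 2 the difference became -0.00373. Of the transposon counts, the members held 0.293% and 0.180% in Col-0, against 0.241% and 0.379% in *jmj26*. LINE/L1 rows held 1.08% and 0.716% in Col-0, against 0.858% and 0.909% in *jmj26*. Both shares of Col-0 replicate 2 are low in part through their base: of its 160845 transposon counts, 41251 came from the DNA transposon family ATDNA12T3_2. This family had 605 counts in Col-0 replicate 1, and 6517 and 691 in *jmj26*. Shares without it were not obtained. Intervals cover counting error only.

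**Figure D2:**
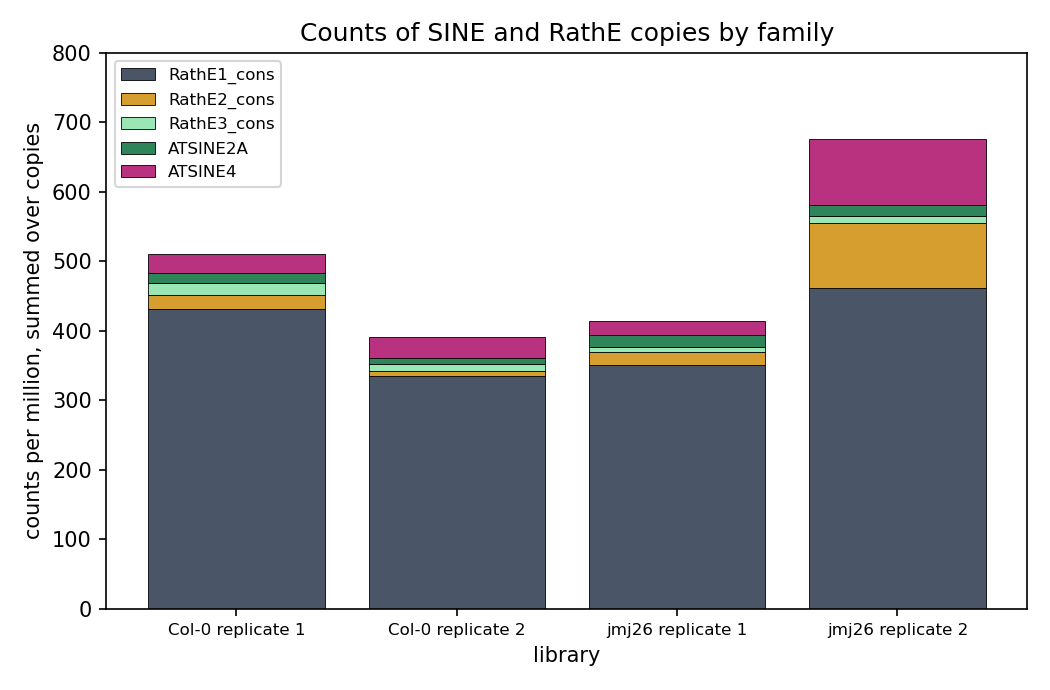
CPM summed over the copies of each family and stacked (y axis), in each of the 4 libraries (x axis). RathE1_cons makes up most of every bar, and the wider RathE2_cons and ATSINE4 parts of *jmj26* replicate 2 rest on a single copy each.

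Expression of single copies was then compared between genotypes with edgeR's quasi-likelihood test, in which gene and transposon rows were fitted together and p-values were adjusted over all 846 transposon rows left by a filter on low counts. Only 8 of the 522 copies passed that filter: 4 of RathE1_cons, 2 of RathE2_cons, 1 of ATSINE4 and 1 of ATSINE2A. None of the 8 had FDR < 0.05, and none had an unadjusted p below 0.05, whereas of the 846 rows 0.355% passed the adjusted and 8.04% the unadjusted threshold. With DESeq2's Wald test 0 of the 8 had an adjusted p below 0.05, against 0.946% of the 846 rows, and 1 (AT5TE89930) had an unadjusted p below 0.05. Without the filter 1 copy, again AT5TE89930, had FDR < 0.05, and 1.42% of the 7703 rows then tested did. The median log2 fold change of the 8 was 0.33, with 5 above 0, compared to -0.077 over the 846 rows, with 352 above 0. The libraries of the genotypes did not overlap in CPM for 3 of the 8 copies, 2 of them higher and 1 lower in *jmj26*, and for 31.3% of the 846 rows. AT5TE89930 is among the 5 above 0 and among these 2. With 8 and 2 counts in Col-0, against 20 and 124 in *jmj26*, it passed the filter only through the *jmj26* libraries. AT3TE45330, the other of these 2, had 10 and 3 counts in Col-0, against 25 and 17 in *jmj26*. Its Col-0 libraries alone would not have carried it past the filter. The median and these counts of direction are therefore given as a description.

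**Figure D3:**
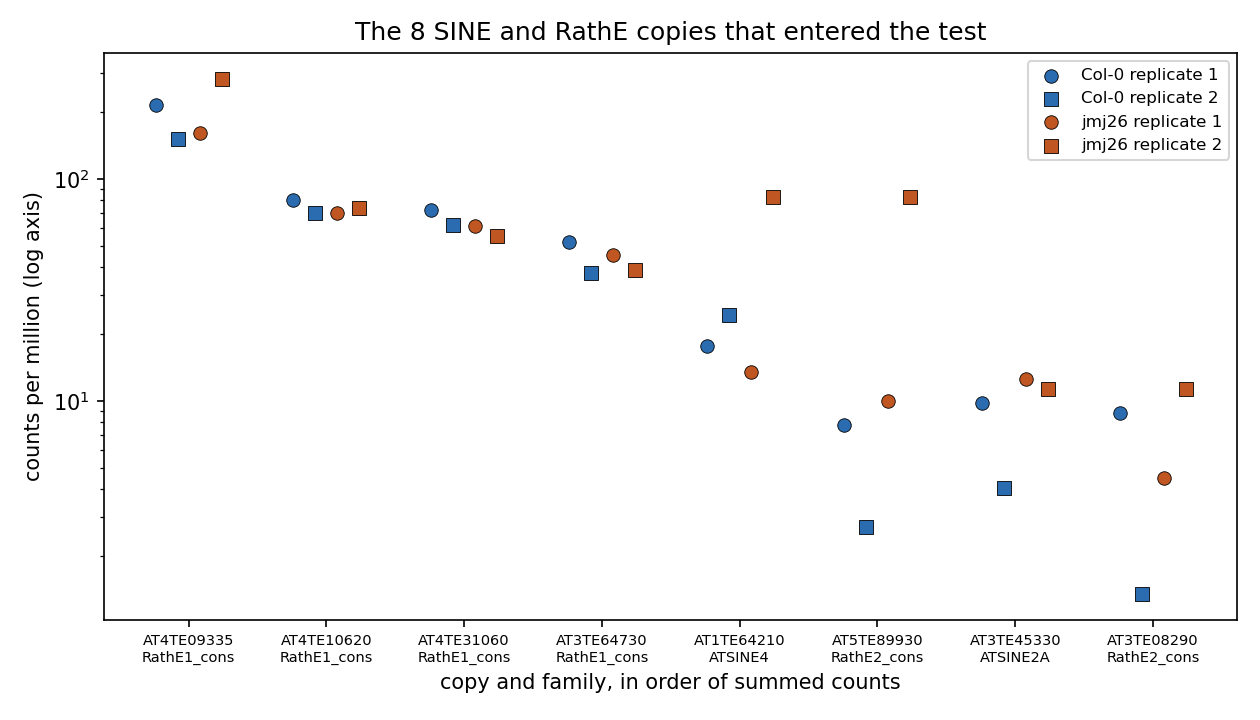
CPM (y axis, log scale) of the 8 SINE and RathE copies that entered the test (x axis, with their family), with a point for each library. *jmj26* replicate 2 lies far above the other 3 libraries for AT1TE64210 and AT5TE89930, at 82.8 CPM each.

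AT4TE09335 (RathE1_cons), the copy with the most reads, had 221 and 112 counts in Col-0, against 322 and 423 in *jmj26*, which is 216, 151, 161 and 283 CPM. The Col-0 libraries lay on both sides of *jmj26* replicate 1, and *jmj26* replicate 2 was the highest. Its log2 fold change was 0.24 (standard error, SE, 0.32, edgeR's adjusted p = 0.834), and -0.23 without *jmj26* replicate 2.

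The other 3 RathE1_cons copies varied less across libraries. AT4TE10620 had 80.2 and 70.2 CPM in Col-0, against 70.5 and 74.1 in *jmj26*, for a log2 fold change of -0.088 with a 95% interval of -0.52 to 0.34. AT4TE31060 had 72.4 and 62.1 CPM in Col-0, against 61.5 and 55.4 in *jmj26*, the only tested copy of which both *jmj26* libraries were below both Col-0 libraries, at a log2 fold change of -0.23 with an interval of -0.69 to 0.22. AT3TE64730 had 51.9 and 37.8 CPM in Col-0, against 45.5 and 38.7 in *jmj26*, at a log2 fold change of -0.12 with an interval of -0.71 to 0.47. All 3 intervals lie within 1 of 0 on the log2 scale and leave smaller changes undecided. Their adjusted p-values from edgeR were 0.885, 0.738 and 0.883.

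Relative to these copies, AT4TE09335 had more reads in *jmj26* replicate 2 than in the other libraries. Its counts were 2.69, 2.15 and 2.28 times those of AT4TE10620 in Col-0 replicates 1 and 2 and *jmj26* replicate 1, and 3.81 times in *jmj26* replicate 2. In contrast, AT4TE10620 had 1.11, 1.13, 1.15 and 1.34 times the counts of AT4TE31060 in the same order. The share of AT4TE09335 in the RathE1_cons counts was 50.1% and 45.2% in Col-0 and 45.9% in *jmj26* replicate 1, and 61.3% in *jmj26* replicate 2 (95% Wilson interval 57.6 to 64.9). The family sum without this copy was 215 and 184 CPM in Col-0, against 190 and 178 CPM in *jmj26*.

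AT5TE89930 (RathE2_cons) had the largest difference among the tested copies, and it came from 1 library. It had 8 and 2 counts in Col-0, 20 in *jmj26* replicate 1 and 124 in *jmj26* replicate 2, which is 7.83, 2.7, 10.01 and 82.8 CPM. Both *jmj26* libraries were above both Col-0 libraries, but *jmj26* replicate 1 only narrowly, and *jmj26* replicate 2 was 8.28 times as high as the next library. The log2 fold change was 2.99 (SE 1.21, edgeR's adjusted p = 0.606), with a 95% interval of -0.041 to 6.02. Without *jmj26* replicate 2 it was 0.81 (SE 0.80), and without *jmj26* replicate 1, which sets *jmj26* replicate 2 alone against Col-0, it was 3.83 (edgeR's adjusted p = 0.00218, in a fit that called 11.4% of the transposon rows). The RathE2_cons copies other than AT5TE89930 summed to 11.7 and 5.40 CPM in Col-0, against 8.01 and 11.4 CPM in *jmj26*.

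AT1TE64210 (ATSINE4), the SINE copy with the most reads, was high in the same library. It had 18 and 18 counts in Col-0, 27 in *jmj26* replicate 1 and 124 in *jmj26* replicate 2, which is 17.6, 24.3, 13.5 and 82.8 CPM. *jmj26* replicate 1 was the lowest library and *jmj26* replicate 2 was 3.41 times as high as the next one, so that the 2 *jmj26* libraries lay on opposite sides of Col-0. The log2 fold change was 1.16 (SE 0.87, edgeR's adjusted p = 0.736), and it turned to -0.64 without *jmj26* replicate 2 and rose to 1.96 without *jmj26* replicate 1 (edgeR's adjusted p = 0.00916). The ATSINE4 copies other than AT1TE64210 summed to 9.78 and 6.75 CPM in Col-0, against 6.0 and 12.7 CPM in *jmj26*.

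AT5TE89930 and AT1TE64210 together held 4.98% and 6.90% of the member counts in Col-0, 5.68% in *jmj26* replicate 1 and 24.5% in *jmj26* replicate 2. A level at least 3-fold that of every other library, a threshold set after these values were seen, was found in *jmj26* replicate 2 for these 2 of the 8 copies and for 2.25% of the 846 transposon rows. In the other direction, 8.04% of the 846 rows were at least 3-fold lower in *jmj26* replicate 2 than in every other library, and 0 of the 8 copies were. Of the 24 LINE/L1 copies tested, 2 were at least 3-fold higher in *jmj26* replicate 2 than in every other library. Whether the header number of this library has a part in these values was not tested. Other libraries stood apart too. By the same threshold, Col-0 replicate 2 was above every other library for 1.42% of the 846 rows and below for 1.18%, with 0 and 1 of the 8 copies. Col-0 replicate 1 was below every other library for 6.40% of the 5232 gene rows tested, against 0.42% for *jmj26* replicate 2. Summed over all other members, the level was 485 and 364 CPM in Col-0, against 390 and 510 CPM in *jmj26*.

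The remaining 2 tested copies had few counts. AT3TE45330 (ATSINE2A) had 10 and 3 counts in Col-0, against 25 and 17 in *jmj26*, which is 9.78, 4.05, 12.5 and 11.4 CPM. Both *jmj26* libraries were above both Col-0 libraries, with *jmj26* replicate 2 close to Col-0 replicate 1. This order is a description, since the copy would not have passed the filter through its Col-0 libraries alone. The log2 fold change was 0.69 (SE 0.45, edgeR's adjusted p = 0.702) and it stayed at 0.75 without *jmj26* replicate 2, although without Col-0 replicate 2 it was 0.20. AT3TE08290 (RathE2_cons) had 9 and 1 counts in Col-0, against 9 and 17 in *jmj26*, with overlapping genotypes and a log2 fold change of 0.42 (SE 0.82, edgeR's adjusted p = 0.885), which became -0.27 without Col-0 replicate 2.

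**Figure D4:**
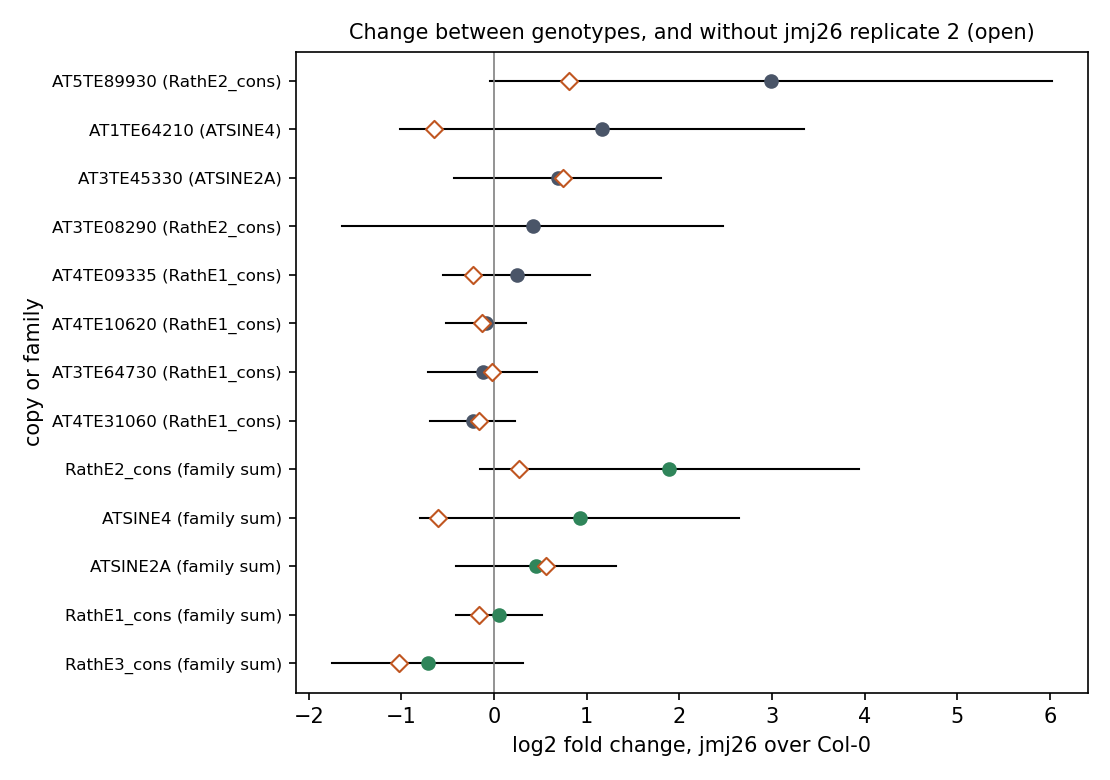
Log2 fold change of *jmj26* over Col-0 (x axis) for the 8 tested copies (grey points) and the 5 family sums (green points), with 95% intervals as lines and open diamonds for the fit without *jmj26* replicate 2. Every interval contains 0, and the diamonds of AT4TE09335 (-0.23), AT1TE64210 (-0.64), RathE1_cons (-0.16) and ATSINE4 (-0.60) lie on the other side of 0. AT3TE08290 has no diamond, since it did not pass the filter in that fit.

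The 514 copies that did not enter the test held 7.51% of the member counts. Only 81 of them had any read, and none had more than 9 counts in a library. Their summed level was 46.0 and 37.8 CPM in Col-0, against 34.5 and 36.7 CPM in *jmj26*, so both *jmj26* libraries were below both Col-0 libraries by a margin smaller than the spread within Col-0. AT4TE26740 (RathE1_cons), the most counted of them, had 3 and 2 counts in Col-0, against 9 and 6 in *jmj26*, or 2.94, 2.7, 4.50 and 4.01 CPM, and both *jmj26* libraries lay above both Col-0 libraries. AT3TE40740 (ATSINE4) had 4, 1, 4 and 9 counts in Col-0 replicates 1 and 2 and *jmj26* replicates 1 and 2, and AT2TE27505 of the same family had 3, 1, 1 and 5. The RathE3_cons copies AT4TE11280 and AT2TE00500 had 6, 0, 4 and 2 and 4, 0, 4 and 2 counts in that order. AT3TE43545 (RathE1_cons) had 2, 2, 5 and 0. None of these copies had enough counts for a test.

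Because reads with several hits may be split among the copies of a family, the comparison was repeated on sums over each family. None of the 5 families of short elements had FDR < 0.05 with edgeR's quasi-likelihood test, nor an unadjusted p below 0.05. Of all 203 transposon families tested, 0 had FDR < 0.05 and 6.40% had an unadjusted p below 0.05. With DESeq2's Wald test 0 of the 5 had an adjusted p below 0.05, against 0.493% of all families, and 1, RathE2_cons, had an unadjusted p below 0.05. Without the filter RathE2_cons had FDR < 0.05, as did 7.30% of the 315 families then tested.

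RathE1_cons summed to 441 and 248 counts in Col-0, against 702 and 690 in *jmj26*, which is 432, 335, 351 and 461 CPM. Its genotype means of 383 ± 68.4 CPM (SD, n = 2) and 406 ± 77.5 CPM (SD, n = 2) differed by less than either SD, and the log2 fold change was 0.052 with a 95% interval of -0.42 to 0.52. RathE2_cons summed to 20 and 6 counts in Col-0, against 36 and 141 in *jmj26*, of which AT5TE89930 supplied 124 of the 141. Its log2 fold change was 1.89 (SE 0.85, edgeR's adjusted p = 0.596), and was 0.27 without *jmj26* replicate 2 and 2.66 without *jmj26* replicate 1 (edgeR's adjusted p = 0.00342, in a fit that called 14.2% of the families).

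RathE3_cons, none of whose 104 copies entered the test alone, summed to 18 and 7 counts in Col-0, against 14 and 16 in *jmj26*, which is 17.6, 9.45, 7.01 and 10.7 CPM. The genotypes overlapped, and the log2 fold change of -0.72 had a 95% interval of -1.74 to 0.31. It was -1.11 without Col-0 replicate 2 (edgeR's unadjusted p = 0.0428, adjusted p = 0.493) and -0.30 without Col-0 replicate 1. The 2 SINE families differed in which library was high. ATSINE2A summed to 15 and 6 counts in Col-0, against 36 and 22 in *jmj26*, with *jmj26* replicate 2 almost equal to Col-0 replicate 1 at 14.7 CPM each. Its log2 fold change was 0.45 with a 95% interval of -0.41 to 1.31, and it moved to 0.063 without Col-0 replicate 2 and to 0.83 without Col-0 replicate 1. ATSINE4 summed to 28 and 23 counts in Col-0, against 39 and 143 in *jmj26*, which is 27.4, 31.0, 19.5 and 95.5 CPM. Its log2 fold change of 0.92 had an interval of -0.80 to 2.64 and turned to -0.60 without *jmj26* replicate 2, while without *jmj26* replicate 1 it was 1.67 (edgeR's adjusted p = 0.00525).

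Both SINE families together had 42.1 and 39.1 CPM in Col-0, against 37.5 and 110 CPM in *jmj26*. In the fit of superfamily sums, SINE had a log2 fold change of 0.76 (SE 0.52, edgeR's adjusted p = 0.295), and LINE/L1, the autonomous counterpart, had -0.23 (SE 0.13, edgeR's adjusted p = 0.295). With edgeR, 0 of the 4 superfamilies of short elements and 0 of all 19 had FDR < 0.05 or an unadjusted p below 0.05. DESeq2's Wald test gave 0 of the 4 and 0 of the 19 after adjustment, and 1 of the 4 before it, RathE2_cons. Without the filter 2 of the 4, RathE2_cons and SINE, had FDR < 0.05, and 21.1% of the 19 did. Without *jmj26* replicate 1 the same 2 were called, with SINE at 1.39 (edgeR's adjusted p = 0.0023) and 15.8% of the 19 called, and without *jmj26* replicate 2 the SINE value was -0.16.

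Most of the genes known to silence or to transcribe such elements had too few counts for the test. Of 26 genes for RdDM, maintenance of methylation, histone demethylation and RNA polymerase III, 18 had more than 3 counts in at least 1 library and 8 had 3 or fewer in every library, among the latter *NRPD1*, the largest subunit of RNA polymerase IV, and *RDR2*, which makes the double-stranded precursor of the small RNAs. The doubt about the strand applies to all 26 rows. Of them, 8 share their interval with a gene on the opposite strand, 3 of the 4 tested ones (*DMS3*, *RDM1* and *NRPC1*) among them. Such a row may hold reads of that other gene and miss those of its own. The rows without such a gene, *NRPD1*, *RDR2*, *CLSY1*, *CMT3* and *ROS1* among them, may also miss reads of their own gene. Few counts in these rows therefore do not show low expression. Only 4 of the 26 entered the test, and 0 of them had FDR < 0.05 or an unadjusted p below 0.05 in the joint fit, in which 0.0191% of the 5232 gene rows had FDR < 0.05. *DMS3*, which helps RNA polymerase V onto chromatin, had 475 and 343 counts in Col-0, against 942 and 567 in *jmj26*, for a log2 fold change of -0.16 (SE 0.16). *RDM1*, its partner in the same complex, had 61 and 46 counts in Col-0, against 125 and 85 in *jmj26* (-0.057, SE 0.18). *CLSY1*, a remodeler that recruits RNA polymerase IV, had 7 and 9 counts in Col-0, against 25 and 17 in *jmj26* (0.35, SE 0.41). *NRPC1*, the largest subunit of RNA polymerase III, had 9 and 5 counts in Col-0, against 16 and 13 in *jmj26* (0.046, SE 0.39). The 4 do not stand for the untested genes. Among those, *CMT3* had 0 and 0 counts in Col-0, against 11 and 4 in the deeper *jmj26* libraries, and *ROS1* had 1 and 0, against 8 and 9. *DRD1* had 6 and 5, against 11 and 11, while *NRPD1* and *RDR2* each had 1 read, in Col-0. A difference of the list as a whole was not tested.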

How the data were processed

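The members and lists were chosen with earlier results of these data known. The authors used fastp for trimming and STAR 2.7 for alignment to Araport11, with up to 100 hits kept per read, and deposited raw read counts per gene and per transposon copy from TEcount, not normalized. The version of TEcount and the strand setting are not given in the sources used here. The counts of the 4 libraries were joined by row identifier, and groups were taken from the sample labels. Total counts were 740909 to 1998601 per library.

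Copies, family sums and superfamily sums were each fitted together with the gene rows in edgeR 4.0.16 (R 4.3.3): filterByExpr, TMM, estimateDisp, glmQLFit with legacy = TRUE and glmQLFTest, without a block, with Benjamini-Hochberg adjustment over the transposon rows tested and a threshold of 0.05. Standard errors (SE) were obtained from each log2 fold change and the square root of its F value, and 95% intervals use the t distribution with the degrees of freedom of the fit. CPM are relative to all counts of a library. Shares have 95% Wilson intervals, thinned detection is the exact hypergeometric expectation, and genotype means were compared by exact permutation tests (scipy 1.17.1). The fit and the thinning were tested on simulated data. Named copies are those that passed filterByExpr and the most counted of the untested ones. The 846 transposon rows tested had a common biological coefficient of variation, with the gene rows, of 24.4%.

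The reference annotation, TAIR10.1, was used for gene names and strand overlaps. It holds 0 of the copy identifiers, so copies have no coordinates here and the planned description by position was not made. Alternatives were other filters, DESeq2 size factors, upper quartile, library totals, DESeq2 1.42.0, transposon rows only, the replicate number as a block, and each library left out.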

Additional observations from a re-analysis of the deposited data

How the results depend on the processing

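The numbers of copies, families and superfamilies of short elements with FDR < 0.05 were 0 and stayed 0 with library totals, upper quartile normalization, the size factors and the Wald test of DESeq2, at least 10 counts in every library and, for copies, transposon rows only. Without a filter on low counts 1 copy (AT5TE89930), 1 family (RathE2_cons) and 2 superfamilies (RathE2_cons and SINE) were called, where 1.42%, 7.30% and 21.1% of all transposon rows were. Across the fits that each left out 1 replicate the numbers were 0 to 2 for copies, families and superfamilies. The 2 came from leaving out *jmj26* replicate 1, which leaves *jmj26* replicate 2 alone, assumed to vary like Col-0, and calls 11.4%, 14.2% and 15.8% of all rows. The cause was not tested. The share difference, 0.00938 percentage points of all counts, ranged from -0.00373 to 0.0225 across the left-out replicates and was 0.00254 without AT5TE89930 and AT1TE64210, chosen after seeing the data. Likewise it ranged from -0.00342 to 0.0155 for RathE and from -0.00031 to 0.00696 for SINE. The detection difference, -5.42 copies after thinning, was 8.0 as counted and 4.0 at 3 counts or more as counted, where *jmj26* is deeper, and -6.44 to -4.39 across the left-out replicates.

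Across the left-out replicates, the log2 fold change of AT4TE09335 ranged from -0.23 to 0.58 (-0.039 without Col-0 replicate 2), of AT3TE08290 from -0.27 to 2.29, of AT1TE64210 from -0.64 to 1.96, of ATSINE4 from -0.60 to 1.67 and of SINE from -0.16 to 1.39. The lowest of each came without *jmj26* replicate 2, except for AT3TE08290, where it came without Col-0 replicate 2. The range of AT3TE08290 lacks the fit without *jmj26* replicate 2, in which this copy did not pass the filter. RathE1_cons, close to 0, was -0.056 as a family and -0.026 as a superfamily without a filter, and ranged from -0.18 to 0.23 as a family and from -0.19 to 0.22 as a superfamily across the left-out replicates (-0.16 and -0.17 without *jmj26* replicate 2).

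The labels number the replicates alike, but nothing says what same-numbered libraries share, and their deviations had a correlation of -0.077 over 6078 rows. The replicate block called 0 copies, 0 families and 0 superfamilies, and gave RathE1_cons -0.013 as a superfamily. Low counts limit all of this: 514 of the 522 copies did not pass the filter. Whether depth, the strand of counting or the poly(A) selection has a part in these low counts was not tested.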
